A study of Mus musculus with 12 samples.

Results

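The SR proteins are splicing regulators with an RNA recognition motif and a tail rich in arginine and serine, and their genes are described here at the level of single introns. The 10 genes were Srsf1, Srsf2, Srsf3, Srsf4, Srsf5, Srsf6, Srsf7, Srsf9, Srsf10 and Srsf11, and their members in the data were the tested splicing clusters that carry one of these names, with every intron of each. A splicing cluster is a set of introns that share splice sites. The names were on 18 of the 7263 tested clusters, with 58 of 20437 introns, in 9 of the 10 genes. Srsf9 had no cluster, and 1 further Srsf10 cluster was listed as having too few valid samples for the test.

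SR proteins bind exonic RNA and help the spliceosome to choose splice sites, and several of them move between nucleus and cytoplasm. Most of their genes contain a poison exon, a cassette exon or an alternative site whose use brings in an early stop codon, so that the mature RNA is degraded by nonsense-mediated decay. A high level of the protein favours the poison form of its own RNA in many of these genes, which keeps the level of each protein in bounds. Nonsense-mediated decay needs translation and so follows splicing and export.

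The RNA came from female hybrid mouse embryonic stem cells (129S x Cast) in which METTL3, the enzyme that writes m6A, carries a C-terminal FKBP12(F36V) tag. The dTAG group had 6 samples, treated with dTAG-13 for 3 h, which degrades the tagged protein, and the Ctrl group had 6 samples without it (0 h). Every sample then took up 4sU, a uridine analogue, for 30 min, and only the labelled RNA was sequenced. Clones C3 and H5 gave 3 samples each to either group. All groups shared the tag, an Xist gene inducible by doxycycline, and growth on inactivated fibroblast feeders, so that 2 clones of 1 engineered line stand for the cell type and no sample lacked the tag.

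Each intron had 1 fitted PSI per condition, the fraction of its cluster's split reads that the model assigned to it, over both clones together. Within a cluster the PSI values sum to 1, so a lower value of a junction goes with higher values among the others. Values for single samples and numbers of reads were not held, so the depth is unknown, PSI values carry no error, and clones could not be compared. The 6 samples a group may share cultures within a clone, in which case the p-values measure in part technical spread. They come from the chi-square approximation of the test, with 6 samples a group. These were bulk samples, and in them fewer cells of a type and less RNA per cell cannot be told apart. Of the marker genes listed for mouse embryonic stem cells, 8 of 10 had a tested cluster, with Pou5f1 and Lin28a the others, against 1 of 7 fibroblast markers (Fn1) and 0 of 7 markers of differentiated cells. Having a tested cluster says that split reads were there, not how many. Loss of METTL3 was at the protein level, so that the 2 tested clusters of Mettl3 itself (largest change in PSI 0.0258, smallest p = 0.805 by LeafCutter's chi-square likelihood-ratio test) do not check the treatment.

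The exons that bring in an early stop codon are shown first, since that codon is the feature by which a poison exon is read from sequence. Each sequence below runs 5′ to 3′ on the transcribed strand of GRCm38, from the first base of the exon to the first stop codon reached in the reading frame of the coding transcript, with that stop codon in capitals.
Srsf3 (chr17:29039454-29039487, plus strand): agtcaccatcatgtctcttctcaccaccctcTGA
Srsf7 (chr17:80205054-80205081, minus strand): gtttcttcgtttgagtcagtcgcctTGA
Srsf6 (chr2:162932815-162932966, plus strand): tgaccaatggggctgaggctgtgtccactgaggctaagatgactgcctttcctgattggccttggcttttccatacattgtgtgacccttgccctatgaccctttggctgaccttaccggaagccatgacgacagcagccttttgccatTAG
Srsf4 (chr4:131884276-131884390, plus strand): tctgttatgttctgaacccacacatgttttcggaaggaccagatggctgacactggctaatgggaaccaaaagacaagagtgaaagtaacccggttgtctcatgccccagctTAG
Srsf11, near exon (chr3:158023310-158023359, minus strand): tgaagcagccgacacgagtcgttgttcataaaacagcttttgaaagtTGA
Srsf11, far exon (chr3:158024209-158024231, minus strand): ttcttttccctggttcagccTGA
Srsf5, exon with unannotated ends (chr12:80948129-80948179, plus strand): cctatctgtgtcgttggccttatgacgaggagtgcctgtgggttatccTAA
The stop codon began 32 nt into the Srsf3 exon, 26 nt into the Srsf7 exon, 150 nt into the Srsf6 exon and 113 nt into the Srsf4 exon. In Srsf11 it began 48 nt into the exon nearer to the downstream coding exon and 21 nt into the exon farther from it, and in Srsf5 49 nt into an exon that GENCODE holds only as the end of a processed transcript. In Srsf3, Srsf4, Srsf6, Srsf7 and the far exon of Srsf11 the codon read this way was the stop codon annotated for the decay transcript of the gene. The near exon of Srsf11 is in 2 decay transcripts, of which one has this stop codon and the other, which also holds the far exon, stops there already, and the Srsf5 exon is in no annotated decay transcript.

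In no tested cluster of an SR protein gene did the use of junctions change past the threshold that allows for the number of clusters tested. Only split reads of introns that share splice sites are compared. An intron left unspliced, or one that shares no splice site, is therefore not measured. An adjusted p under 0.05 was reached by 0 of 18 clusters, where 51 of the 7263 tested clusters (0.702%) reached it, and a p of at most 0.05 by 2 of 18 clusters, where 497 clusters (6.84%) did, all by LeafCutter's chi-square likelihood-ratio test with Benjamini-Hochberg adjustment over all tested clusters. The smallest adjusted p of the family was 0.437. By that chi-square likelihood-ratio test the 2 clusters lay in Srsf6 (p = 0.0139, rank 231 among all tested clusters) and Srsf5 (p = 0.0343, rank 385). The largest absolute change in PSI per cluster had a median of 0.0218 in the SR protein genes and 0.0214 over all tested clusters. It ranged from 0.000808 to 0.0621 in the family, and 0 of 18 clusters reached 0.1, a size reached by 336 clusters (4.63%) of all. Against clusters with the same number of introns, 8 of 18 were above the median.

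**Figure D1:**
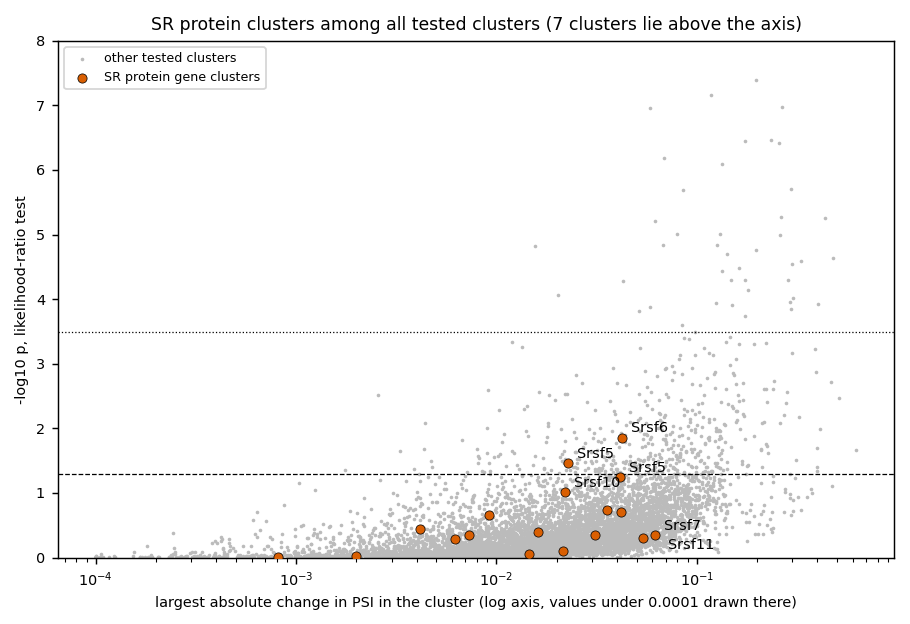
Each point is a tested cluster, with the largest absolute change in PSI between dTAG and Ctrl on a log axis and −log10 of the p of the chi-square likelihood-ratio test on the other. SR protein clusters are orange, the dashed line marks a p of 0.05 in the chi-square test and the dotted line the largest p whose adjusted value is under 0.05; 2 of the 18 orange points lie above the dashed line and 0 above the dotted one.

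Many annotated decay forms had junctions of their own. Junctions held by decay transcripts and by no coding transcript of GENCODE made up 11 of 58 introns (19.0%) in the SR protein genes, against 989 of 20437 introns (4.84%) in all tested clusters. They lay in 6 of 18 clusters (33.3%), against 788 of 7263 (10.8%). The median PSI of these decay junctions was 0.152 in dTAG and 0.149 in Ctrl in the SR protein genes, and 0.0781 in dTAG and 0.0753 in Ctrl over all tested clusters. After dTAG-13, 5 decay junctions had a higher PSI and 6 a lower one, with a median difference of -0.00321 and a range from -0.0376 to 0.0537. Over all tested clusters 544 had a higher and 445 a lower PSI, with a median difference of 0.00167. Another 13 of the 58 introns (22.4%) were in no GENCODE transcript, close to the 25.3% of all introns, and every one of the 58 began with GT and ended with AG on the strand of its gene.

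**Figure D2:**
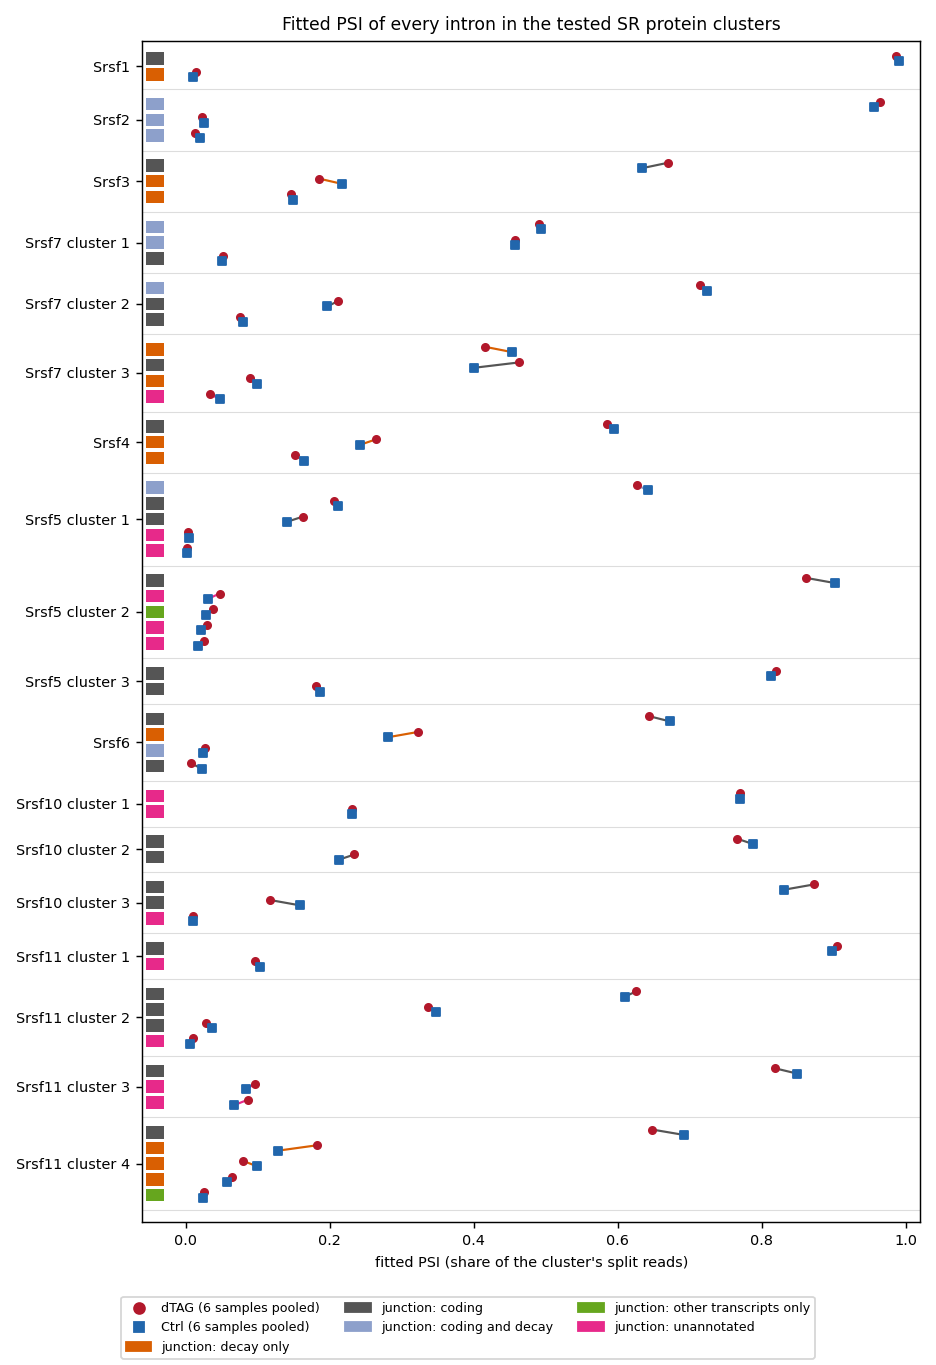
Each row is 1 of the 58 introns, with its fitted PSI in dTAG (circles) and in Ctrl (squares) on the horizontal axis as a fraction of the cluster, and clusters of a gene numbered along the chromosome. The coloured boxes at the left give the annotation of the junction; in every row the circle lies within 0.0621 of its square.

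A cassette exon was defined by a skipping junction and the junctions into and out of the exon, and its inclusion was the mean PSI of the flanking junctions divided by that mean plus the PSI of the skipping junction. The 18 clusters held 17 such exons in 11 clusters, counting each form of an exon that shares its start or its end with another. Their length had a median of 165 nt, against 123 nt over all 5005 cassette exons. Inclusion had a median of 0.198 in dTAG and 0.185 in Ctrl in the SR protein genes, against 0.819 in dTAG and 0.825 in Ctrl over all. The family medians fall on different exons, that of Srsf3 in dTAG and that of Srsf6 with 268 nt in Ctrl. Their difference is therefore not the change of any exon. Of 14 exons whose skipping junction lies in a coding sequence, 11 (78.6%) brought a stop codon in frame, against 757 of 1688 (44.8%) over all. These 11 begin at only 7 positions, since the alternative ends in Srsf5, Srsf6 and Srsf7 share their first base. After dTAG-13 inclusion was higher for 9 of 17 exons and lower for 8, with changes from -0.0579 (Srsf7, 107 nt) to 0.0640 (Srsf10, 102 nt) and a median absolute change of 0.0148, against 0.0166 over all. Forms that share a start or an end also share a flanking junction and the skipping junction, so the 17 changes are not separate. Both limits depend on the junctions read. The Srsf7 form of 107 nt shares its entry with a longer form, and the Srsf10 value describes chiefly a choice of last exon. The Srsf7 value was -0.0257 as a share of the whole cluster and the Srsf10 value 0.0153 by the downstream junction alone. By the upstream junction alone the Srsf11 exon of 117 nt between coding exons had -0.112, where the mean gave -0.0104. That value rests on little used junctions, an entry at 0.0283 in dTAG and 0.0363 in Ctrl and a skipping junction at 0.00948 in dTAG and 0.00585 in Ctrl.

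Srsf1, a founding member that shuttles between nucleus and cytoplasm, had 1 tested cluster, on chromosome 11. It pairs a coding intron of 196 nt with an intron of 761 nt that uses the same 5′ splice site, a second 3′ splice site 565 nt farther on, and is annotated only in a decay transcript. On the genome, the stop codon of the decay form (chr11:88050013) lies downstream of that of the coding transcript (chr11:88049997), not before it. The decay junction had a PSI of 0.0143 in dTAG and 0.0101 in Ctrl, and the coding junction 0.986 in dTAG and 0.990 in Ctrl. The decay form was thus a minor one in both conditions, with a difference of 0.00417 (p = 0.358, chi-square likelihood-ratio test). Shown with the AG of the intron end in capitals, 20 intron bases and 3 exon bases, the acceptors compare as follows.
Srsf1 coding acceptor (chr11:88049392-88049414, plus strand): aagttctgtctatccaatAGgga
Srsf1 decay acceptor (chr11:88049957-88049979, plus strand): tttcatgtgtctttctgtAGaca
The rarely used decay acceptor had 14 pyrimidines in the 18 bases before its AG, and the coding acceptor that took nearly all reads had 11. The median over 13536 acceptors of tested clusters was 13.

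Srsf3, the shortest SR protein and an adaptor for mRNA export, held the plainest poison exon of the set. The exon of 456 nt lies in the third intron of the coding transcript (chr17:29039454-29039909) and is annotated only in decay transcripts. The skipping junction had a PSI of 0.669 in dTAG and 0.634 in Ctrl. The junction into the exon had 0.185 in dTAG and 0.217 in Ctrl, and the junction out of it 0.146 in dTAG and 0.149 in Ctrl. Inclusion was 0.198 in dTAG and 0.224 in Ctrl, a difference of -0.0260, and the upstream junction differed more than the downstream one (p = 0.184, adjusted p = 0.904, chi-square likelihood-ratio test). The poison exon ends the open reading frame after 124 codons, where the coding transcript has 164, and its stop codon lies 548 nt before the last exon junction.
Srsf3 poison exon acceptor (chr17:29039434-29039456, plus strand): aaaaatgaaccccgttacAGagt
Srsf3 next coding exon acceptor (chr17:29040755-29040777, plus strand): tttactgtttctgcttctAGatc
The poison acceptor had 8 pyrimidines of 18, the fewest in the family, and the coding acceptor had 15. Only 3.44% of all acceptors had 9 or fewer, and 30.0% had 15 or more.

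Srsf7, a close relative of Srsf3 that also acts in mRNA export, had 3 tested clusters on chromosome 17. In the third intron lies its poison exon, with 1 start and alternative ends, annotated at 460 nt in a decay transcript and ending after 107 nt at a site in neither GENCODE nor RefSeq. The skipping junction had a PSI of 0.462 in dTAG and 0.400 in Ctrl, the largest difference of the 58 introns (0.0621). The junction into the poison exon had 0.415 in dTAG and 0.453 in Ctrl. The junctions out of it had 0.0889 in dTAG and 0.0996 in Ctrl for the longer exon, and 0.0336 in dTAG and 0.0474 in Ctrl for the shorter one. All 3 poison junctions were lower in dTAG, and with a higher skipping junction their sum had to be. Decay junctions together took 0.504 of the cluster in dTAG and 0.552 in Ctrl. That sum counts both the entry and an exit of the same exon, so it is not the share of RNA that holds the exon. With both ends joined, inclusion was 0.368 in dTAG and 0.428 in Ctrl, a difference of -0.0607, without a call in the test (p = 0.453, adjusted p = 0.982, chi-square likelihood-ratio test).

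The junction into the Srsf7 poison exon carried more of the cluster than those out of it, 3.39 times their sum in dTAG and 3.08 times in Ctrl. Taken singly, it was 4.67 times the exit of the longer exon in dTAG and 4.55 times in Ctrl, and 12.4 times the exit of the shorter exon in dTAG and 9.55 times in Ctrl. Over all cassette exons, also taken singly, the larger flanking junction was at a median 1.64 times the smaller in dTAG and 1.66 times in Ctrl, and it was at least 3 times the smaller for 24.0% in Ctrl. The donors are shown with 3 exon and 6 intron bases and the GT in capitals.
Srsf7 exon donor after 460 nt (chr17:80204616-80204624, minus strand): aagGTttat
Srsf7 exon donor after 107 nt (chr17:80204969-80204977, minus strand): gagGTgatc
Srsf7 upstream coding exon donor (chr17:80205256-80205264, minus strand): cagGTattt
Against AAGGTAAGT, the most frequent base at each position over 13986 donors of tested clusters, they matched at 6, 5 and 6 positions in the order printed, with a median of 6 over all donors. The other Srsf7 clusters differed little. A coding exon of 36 nt, a multiple of 3 that keeps the reading frame, was included at 0.902 in dTAG and 0.905 in Ctrl (p = 0.940, chi-square likelihood-ratio test), from flanking junctions at 0.491 and 0.458 in dTAG and at 0.493 and 0.457 in Ctrl and a skipping junction at 0.0515 in dTAG and 0.0499 in Ctrl. A choice among 3 donors of 1 coding intron differed by at most 0.0146 (p = 0.883, chi-square likelihood-ratio test).

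Srsf2, a nuclear member that marks splicing speckles, differed from the rest in where its cassette exon sits. The exon of 104 nt (chr11:116851648-116851751) lies after the stop codon of the coding transcript, as does the junction that skips it, and all 3 junctions of the cluster are in coding and in decay transcripts. The junction into it had a PSI of 0.0130 in dTAG and 0.0200 in Ctrl, the junction out of it 0.0227 in dTAG and 0.0249 in Ctrl, and the skipping junction 0.964 in dTAG and 0.955 in Ctrl. Inclusion was 0.0182 in dTAG and 0.0229 in Ctrl (p = 0.216, chi-square likelihood-ratio test). This was the lowest inclusion of the 17 exons in either condition.

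**Figure D3:**
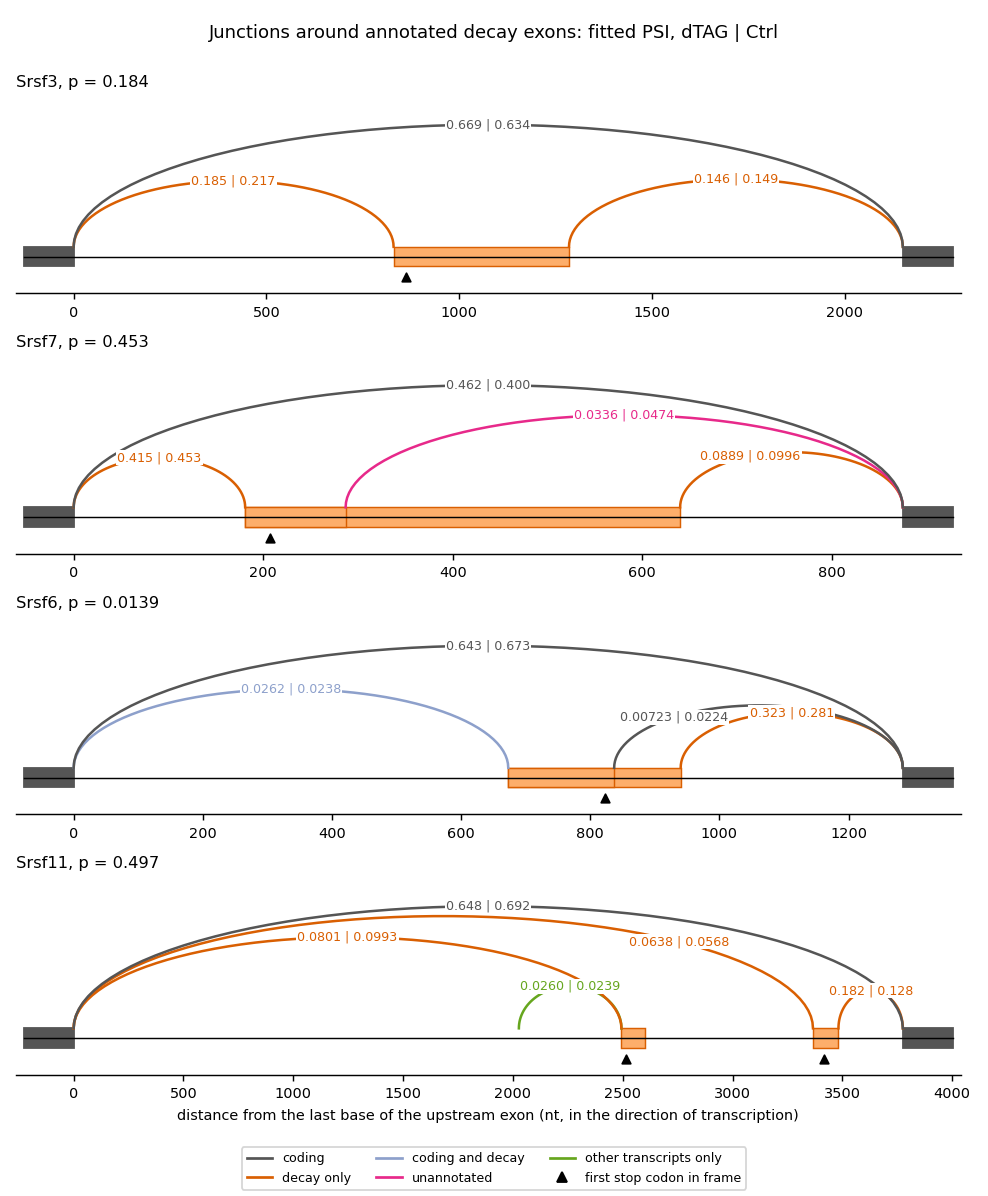
Maps of 4 clusters with decay exons, to scale, in nt from the last base of the upstream coding exon, with exons as boxes, junctions as arcs coloured by annotation, and the PSI in dTAG and in Ctrl on each arc. The decay exons of Srsf11 are drawn as in GENCODE. The skipping arc has the higher value in dTAG in Srsf3 and Srsf7 and the lower value in dTAG in Srsf6 and Srsf11, and in Srsf6 the arc out of the longer exon is at 0.323 and 0.281 while the arc into it is at 0.0262 and 0.0238.

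Srsf4, Srsf5 and Srsf6 form a subgroup with a further, divergent RNA recognition motif. In Srsf6 the second intron holds an exon with 1 start and ends after 165 or 268 nt, and its cluster had the smallest p of the family (p = 0.0139, adjusted p = 0.437, chi-square likelihood-ratio test). The decay junction out of the longer exon had a PSI of 0.323 in dTAG and 0.281 in Ctrl, a difference of 0.0421. The junction out of the shorter exon had 0.00723 in dTAG and 0.0224 in Ctrl. The Ctrl value was 3.10 times that in dTAG, a ratio of low values that carry no error. The skipping junction had 0.643 in dTAG and 0.673 in Ctrl, and the junction into the exon 0.0262 in dTAG and 0.0238 in Ctrl. In the fitted values the longer end thus took more and the shorter end less in dTAG, while the shared entry moved little. Single junctions were not tested.
Srsf6 donor after 165 nt (chr2:162932977-162932985, plus strand): atgGTgagg
Srsf6 donor after 268 nt (chr2:162933080-162933088, plus strand): gatGTaagt
Srsf6 upstream coding exon donor (chr2:162932140-162932148, plus strand): gcaGTgagt
These donors matched the frequent bases at 6, 7 and 5 positions in the order printed.

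Both Srsf6 exons share the stop codon, which lies 534 nt before the last exon junction with the longer exon and 431 nt with the shorter one, and the frame then has 135 codons in place of 339. The transcript with the shorter exon is nevertheless filed as coding in GENCODE. The entry and exit of the longer exon were far apart in level: the exit was 12.3 times the entry in dTAG and 11.8 times in Ctrl. A gap of at least 10 times was found for 10.3% of all cassette exons in Ctrl. Inclusion of the longer exon was 0.214 in dTAG and 0.185 in Ctrl by the mean of both junctions, 0.0392 in dTAG and 0.0342 in Ctrl by the entry alone, and the size of the difference therefore depends on which junction is read (0.0288 or 0.00496).

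Srsf5, whose RNA is spliced in many forms, had 3 clusters on chromosome 12. The first intron lies before the start codon and joins 5 donors to 1 acceptor (p = 0.0343, adjusted p = 0.643, chi-square likelihood-ratio test). The most used donor had a PSI of 0.627 in dTAG and 0.642 in Ctrl, and the donor 4 bases upstream of it 0.205 in dTAG and 0.212 in Ctrl. The annotated donor farthest downstream had 0.163 in dTAG and 0.140 in Ctrl. The last pair, in no GENCODE or RefSeq transcript, had 0.00305 in dTAG and 0.00391 in Ctrl, and 0.00185 in dTAG and 0.00215 in Ctrl. Only that farthest annotated donor was higher in dTAG, by 0.0227, and the other 4 were lower by at most 0.0148.
Srsf5 most used donor (chr12:80945670-80945678, plus strand): tagGTgagt
Srsf5 donor upstream of it (chr12:80945666-80945674, plus strand): ccgGTaggt
Srsf5 farthest annotated donor (chr12:80945796-80945804, plus strand): gagGTgggc
They matched the frequent bases at 7, 6 and 5 positions in that order, which is also the order of their PSI, although the unannotated donors, used least, matched at 6 and 7.

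The second Srsf5 cluster, in an intron inside the coding sequence, had p = 0.0572 (adjusted p = 0.744, chi-square likelihood-ratio test) and an exon with an in-frame stop codon, none of whose junctions is in a decay transcript of GENCODE. The skipping junction had a PSI of 0.861 in dTAG and 0.902 in Ctrl. The junction into the exon had 0.0374 in dTAG and 0.0282 in Ctrl. The junctions out of it, which end the exon after 338, 427 or 534 nt and are in neither GENCODE nor RefSeq, had 0.0251, 0.0297 and 0.0470 in dTAG and 0.0176, 0.0211 and 0.0311 in Ctrl. All 4 inclusion junctions were higher in dTAG, by a factor of 1.32 to 1.51. As the skipping junction was lower, their sum had to be higher, and they flank forms of the same exon. With the ends joined, inclusion was 0.0748 in dTAG and 0.0515 in Ctrl. The shared stop codon cuts the frame to 138 codons where the coding transcript has 270.

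Srsf4 held a decay path that runs through 3 annotated exons in its long first intron (17336 nt). The junction into the first of them had a PSI of 0.152 in dTAG and 0.164 in Ctrl, the junction out of the last 0.264 in dTAG and 0.242 in Ctrl, and the skipping junction 0.584 in dTAG and 0.594 in Ctrl. The exit is also used by a transcript that starts inside the intron, and entry and exit differed in opposite directions. The mean gave an inclusion of 0.262 in dTAG and 0.254 in Ctrl (p = 0.803, chi-square likelihood-ratio test). The stop codon comes after 73 codons, the earliest of the set, in a protein of 491.

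Srsf11, a divergent member with a part in the splicing of very short exons, had 4 clusters on chromosome 3 with 14 introns. Both decay exons shown above lie in the third intron of the coding transcript. The skipping junction had a PSI of 0.648 in dTAG and 0.692 in Ctrl. The junction out of the near exon (117 nt) had 0.182 in dTAG and 0.128 in Ctrl, the largest difference of any decay junction of the family (0.0537). The junction into the near exon had 0.0638 in dTAG and 0.0568 in Ctrl, and that into the far exon 0.0801 in dTAG and 0.0993 in Ctrl. The remaining junction, into the far exon from a site inside the intron, had 0.0260 in dTAG and 0.0239 in Ctrl. By the mean of its entry and exit, the near exon was included at 0.159 in dTAG and 0.118 in Ctrl. In GENCODE that exit also serves the path through the far exon and is the first intron of a further transcript. No junction from the far exon to the near one is among the 5 introns of the cluster. In 5 RefSeq transcripts the whole stretch of 989 nt, from the far exon through the near one, is a single exon. By its own entry alone, inclusion of the near exon was 0.0897 in dTAG and 0.0759 in Ctrl, a difference of 0.0138. With both entries joined inclusion was 0.201 in dTAG and 0.171 in Ctrl. As the cluster had p = 0.497 (adjusted p = 0.987, chi-square likelihood-ratio test), the test did not separate these differences from the spread between samples.

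Another exon of Srsf11, 112 nt long in the seventh intron (chr3:158019087-158019198), is in no GENCODE transcript but in 6 RefSeq transcripts. The junction into it had a PSI of 0.0863 in dTAG and 0.0677 in Ctrl, the junction out of it 0.0957 in dTAG and 0.0834 in Ctrl, and the skipping junction 0.818 in dTAG and 0.849 in Ctrl, so that inclusion was 0.1001 in dTAG and 0.0817 in Ctrl (p = 0.444, chi-square likelihood-ratio test). Its length is no multiple of 3, and the frame read through it meets a stop codon in a later exon, 406 nt before the last exon junction. Another Srsf11 cluster chooses between exon forms of 96 and 117 nt, both coding, in which the shorter form was entered at 0.336 in dTAG and 0.348 in Ctrl and the longer at 0.0283 in dTAG and 0.0363 in Ctrl. The shared exit had 0.626 in dTAG and 0.610 in Ctrl and the unannotated skipping junction 0.00948 in dTAG and 0.00585 in Ctrl (p = 0.395, chi-square likelihood-ratio test).

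Srsf10, which represses splicing in its dephosphorylated state, had no annotated decay junction. Its largest cluster sets an alternative last exon against a distal one. The junction to the nearer exon had a PSI of 0.873 in dTAG and 0.831 in Ctrl, and the junction to the distal exon 0.118 in dTAG and 0.159 in Ctrl. The remaining junction, which makes the nearer exon an internal one of 102 nt and is in 1 RefSeq model, had 0.00948 in dTAG and 0.01003 in Ctrl. The entry of this exon was 92.1 times its exit in dTAG and 82.8 times in Ctrl, so that its inclusion of 0.790 in dTAG and 0.726 in Ctrl describes chiefly the choice of last exon (p = 0.198, chi-square likelihood-ratio test).

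**Figure D4:**
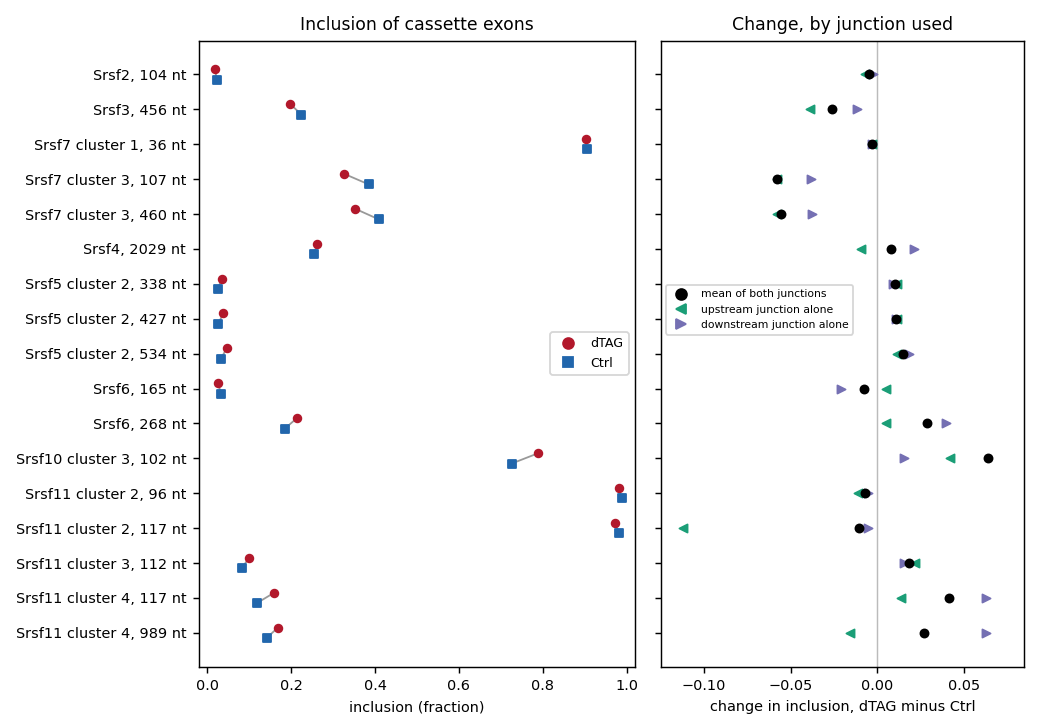
The left panel gives the inclusion of the 17 cassette exons as a fraction in dTAG (circles) and in Ctrl (squares); the right panel gives the difference, dTAG minus Ctrl, by the mean of both flanking junctions and by either junction alone. Differences by the mean run from -0.0579 for the Srsf7 exon of 107 nt to 0.0640 for the Srsf10 exon of 102 nt, and in Srsf4, the Srsf6 exon of 165 nt and the Srsf11 stretch of 989 nt the junctions fall on opposite sides of 0. Clusters of a gene are numbered along the chromosome.

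The other 5 clusters, in Srsf5, Srsf7, Srsf10 and Srsf11, hold neither a decay-only junction nor a cassette exon, and their largest changes in PSI ran from 0.000808 to 0.0220. In 3 of them the choice is between acceptors 3 nt apart. They were singled out after their values were seen, and are shown because all 3 end in the same 5 letters. Acceptors 3 nt apart that both end in AG fix all of these letters but the middle one. The first AG is in capitals.
Srsf5 (chr12:80949697-80949719, plus strand): ttcttgccaatttttcatAGcag
Srsf11 (chr3:158012201-158012223, minus strand): tcccattctccttgtcaaAGcag
Srsf10 (chr4:135863503-135863525, plus strand): ttttctggtatgctttttAGcag
The CAG after the first AG holds the second one. The PSI of the first AG was 0.181 in dTAG and 0.187 in Ctrl in Srsf5, 0.904 in dTAG and 0.897 in Ctrl in Srsf11, and 0.766 in dTAG and 0.788 in Ctrl in Srsf10. The same closing letters were thus used at quite different levels, with differences of 0.00624, 0.00725 and 0.0220 in size. Over 481 tested clusters with acceptors 3 nt apart the median largest change was 0.0184.

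A further one of the 5, also chosen after its values were seen and shown for its donor, joins 1 donor in Srsf10 to acceptors on either side of the annotated start of the third exon.
Srsf10 donor (chr4:135859199-135859207, plus strand): gatGTatcc
Introns that begin with GTATCC or ATATCC are typical of the minor spliceosome, and 52 introns in 34 tested clusters began so. In the family the exit of the Srsf5 exon of 427 nt also began with GTATCC. The annotated Srsf10 intron before the same exon begins with ATATCC and ends with AC, while both introns of the cluster begin with GTATCC and end with AG, 1 of them 3 nt before the annotated exon start and the other 7 nt after it. Their PSI was 0.770 and 0.230 in dTAG and 0.769 and 0.231 in Ctrl (p = 0.984, chi-square likelihood-ratio test), the smallest change among the 18 clusters. Neither intron is in GENCODE or RefSeq, and the donor itself is the end of an exon of a processed transcript.

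The cassette exons were searched on the transcribed strand for GGACT, a common m6A context, and GAAGAA, a purine motif bound by SR proteins. GGACT was found in the Srsf4 stretch of 2029 nt alone, with 2 copies, where 79.3% of equally long windows centred on 2411 simple cassette exons held it. For the other exons the share of such windows ran from 3.19% at 36 nt to 54.7% at 989 nt. GAAGAA was found in that Srsf4 stretch with 2 copies (62.9% of windows) and once in the Srsf7 exon of 460 nt (23.4% of windows). The absence of a match says only that these letters are not in the window. GC content, read from the first to the last base of each stretch, had a median of 47.4% in the family. It was 47.1% over 4676 of the 5005 cassette exons of all tested clusters, the longest being left out. The family median is the value of the Srsf4 stretch, of which only 589 nt of the 2029 nt searched are annotated exon.

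Among 31 other genes of the pathway (SR-related proteins, their kinases and cofactors), 28 had a tested cluster, with 77 clusters in all. A p of at most 0.05 was reached by 7 clusters in 5 genes and an adjusted p under 0.05 by 3 clusters, against 6.84% and 0.702% of all tested clusters, and the median largest change was 0.0195. The 3 clusters lay in Acin1, a component of complexes bound to spliced exons, and Thrap3, an SR-like coactivator. In Acin1 the junction with the largest change had a PSI of 0.0164 in dTAG and 0.0782 in Ctrl (adjusted p = 0.00213, LeafCutter's chi-square likelihood-ratio test with Benjamini-Hochberg adjustment). In Thrap3 the junctions with the largest change had 0.708 in dTAG and 0.842 in Ctrl (adjusted p = 0.00783) and 0.0216 in dTAG and 0.0645 in Ctrl (adjusted p = 0.00999, both by the chi-square likelihood-ratio test). Ppig, Scaf8 and Srrm2 had clusters with a p of at most 0.05 and adjusted p from 0.335 to 0.687.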

How the data were processed

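4sU-labelled RNA of 12 samples (6 dTAG, 6 Ctrl) was sequenced. Per the labels, the authors aligned reads to mm10 with STAR 2.5.2b, and per the study's methods they kept uniquely mapped junctions and ran LeafCutter with at least 30 split reads per cluster and both clones in 1 comparison. The deposited tables hold a fitted PSI per condition, as a fraction of the cluster, and for each cluster the log-likelihood ratio (a score), its degrees of freedom and a p-value. The deposited p-value equals the chi-square tail of the score (largest difference 7.63e-15), from which p was taken here. Deposited columns of fold effects, PSI differences and adjusted p-values were not used, and differences are dTAG minus Ctrl from the fitted PSI. Adjustment was by Benjamini-Hochberg over 7263 tested clusters.

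Start and end in the tables are the exon bases that flank an intron. Junctions were matched to GENCODE vM21 and RefSeq on GRCm38, the build of mm10, and sequences were read from the RefSeq genome with pysam 0.24.0. Reading frames, splice sites and cassette exons were computed in Python 3.11.15 with scipy 1.17.1, and steps were tested on simulated data. Values of all introns are given for clusters with p of at most 0.05, a cassette exon or a decay-only junction, and other clusters by ranges. Other pathway genes are named only with p of at most 0.05. Members, lists and alternatives were chosen with earlier results of these data known.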

Additional observations from a re-analysis of the deposited data

How the results depend on the processing

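No paired analysis was possible because the tables hold 1 fitted value per condition and none per sample, and for the same reason no replicate could be left out. The count of 0 clusters with an adjusted p under 0.05 was also 0 with a threshold of 0.2 and over clusters whose largest change was at least 0.01. Holm adjustment, which is never less strict, could not raise it, and neither clusters with 1 gene name, which all 18 have, nor the deposited p, which equals the one used, could change which clusters had a p of at most 0.05. That count of 2 was 0 at a p of at most 0.01. The PSI of decay junctions was higher in dTAG in 4 of 6 clusters (Srsf1, Srsf4, Srsf6 and Srsf11) under each of 4 alternatives, but 20 of these 24 values equal the main one because the alternative left the same junctions, so they say little about stability. The other 4 stayed within 1.5 times. Of 51 alternative values for the 17 cassette exons, 26 stayed within 1.5 times, 20 moved further with the same sign and 5 changed sign. With the upstream junction alone the change was 0.00496 for the Srsf6 exon of 165 nt, -0.0156 for the Srsf11 stretch of 989 nt and -0.00948 in Srsf4, where the mean of both junctions gave -0.00787, 0.0269 and 0.00784. As a share of the whole cluster it was 0.00217 and 0.00403 for the Srsf11 exons of 96 and 117 nt, where the mean gave -0.00725 and -0.0104. The cause was not tested.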
